A study of Homo sapiens with 14 samples.

Results

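The genes described here are 10 markers and regulators of the epithelial and mesenchymal states of carcinoma cells: EPCAM, ESRP1, GRHL2, OVOL1, ZEB1, ZEB2, SNAI1, SNAI2, VIM and FN1. They are a list of names, with no threshold on their values, and all 10 were found among the 58825 genes counted in each of 3 RNA-seq tables. The study exposed OVCAR-3, CAOV3 and SKOV3, established lines from ovarian cancers, to GSK-J4 or to its control compound GSK-J5, each at 2.5 µM. GSK-J4, an ester prodrug that enters cells, inhibits the H3K27 demethylases JMJD3 (KDM6B) and UTX (KDM6A), and GSK-J5 is the ester of an inactive isomer. OVCAR-3 was exposed for 48 h (2 libraries per compound) and for 72 h (3 per compound), and CAOV3 and SKOV3 for 72 h (3 per compound), which gives 22 libraries. Replicates 1 and 2 of every group, listed together as 1 sample, came from cells in stripped medium, with an RNeasy mini kit. Replicate 3, which exists at 72 h alone, came from cells in media listed with serum, with an RNeasy Plus kit and poly(A)-enriched libraries. Each line had its own medium (RPMI for OVCAR-3, DMEM/F12 for CAOV3 and McCoys for SKOV3), so line and medium cannot be told apart. There is no untreated group. The labels name no separate cultures, and the p-values below therefore measure the spread between libraries, which may be technical.

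Epithelial cells hold to their neighbours through adherens, tight and desmosomal junctions, and lose these contacts as they take on a mesenchymal state. The factors ZEB1, ZEB2, SNAI1 and SNAI2 repress epithelial genes by binding E-box sequences, while GRHL2 and OVOL1 act in the opposite direction and repress ZEB1. The miR-200 family and ZEB1 repress each other. Ovarian carcinoma lines are known to cover the range between the states.

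RefSeq promoter windows of GRCh38.p14, each reaching from 250 bases before to 50 after a start site, were held for 4 of the 10 genes: ZEB1, ZEB2, VIM and FN1. They were searched for the E-box CAGGTG, the AP-1 element TGANTCA and the CRE TGACGTCA on both strands, with overlapping matches allowed. Of the 7 windows of ZEB1, the one with the most E-boxes is shown, chosen after the search. ZEB1 and VIM are shown because they are a repressor and a filament gene with wide differences between lines, and FN1 because its level differed between compounds. Capitals mark the matches, and each sequence is on the strand of its gene, 5′ to 3′.
ZEB1, chr10:31318966-31319265, plus strand: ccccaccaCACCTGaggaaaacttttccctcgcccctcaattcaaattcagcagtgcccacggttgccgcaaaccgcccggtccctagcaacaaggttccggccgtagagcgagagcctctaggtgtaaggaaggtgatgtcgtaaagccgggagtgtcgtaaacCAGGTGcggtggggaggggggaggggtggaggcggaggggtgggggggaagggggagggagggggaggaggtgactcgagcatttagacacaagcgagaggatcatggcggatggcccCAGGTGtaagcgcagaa
VIM, chr10:17227991-17228290, plus strand: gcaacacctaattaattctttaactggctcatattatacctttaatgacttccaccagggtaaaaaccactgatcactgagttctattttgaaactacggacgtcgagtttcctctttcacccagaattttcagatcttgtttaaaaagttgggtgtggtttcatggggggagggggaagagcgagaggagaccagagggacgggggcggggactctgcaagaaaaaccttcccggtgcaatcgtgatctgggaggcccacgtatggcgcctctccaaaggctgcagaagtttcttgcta
FN1, chr2:215436019-215436318, minus strand: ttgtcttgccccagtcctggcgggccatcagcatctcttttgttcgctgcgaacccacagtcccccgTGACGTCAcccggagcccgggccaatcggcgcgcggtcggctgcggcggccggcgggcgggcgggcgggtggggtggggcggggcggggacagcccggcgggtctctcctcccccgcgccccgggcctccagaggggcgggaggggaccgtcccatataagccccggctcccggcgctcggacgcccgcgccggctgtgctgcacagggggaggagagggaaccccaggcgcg
The printed ZEB1 window held 3 E-boxes, the FN1 window 1 CRE and the VIM window none of the 3 motifs. The ZEB1 window nearest to the start of the gene held 1 E-box, and the remaining ZEB1 windows held none. The ZEB2 window held none of the 3 motifs. Of all 35116 promoter windows of this length, 20.6% held the E-box, 7.71% the AP-1 element and 1.85% the CRE. These shares are per single window, so they cannot be set beside a ZEB1 window chosen from 7 for its E-boxes. A match describes the letters in a window and is no measurement of binding.
The mature miRNAs below lie in the locus of MIR200CHG, a host transcript that the count tables hold, and are shown because miR-200 and ZEB1 repress each other. Capitals mark the seed, bases 2 to 8, which differs between them.
miR-200c-3p: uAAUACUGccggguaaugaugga
miR-141-3p: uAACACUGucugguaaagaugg
The level of neither miRNA was measured here.

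Libraries held between 24037007 and 37990707 counts. Levels are given as CPM, a gene's count relative to its library's total after TMM scaling over all 22 libraries. A count of 3 stands for 0.0790 to 0.1248 CPM, and a gene with no count in a library may lie anywhere below that. The TMM factors of OVCAR-3 at 72 h were 0.776, 0.765 and 0.970 under GSK-J4 and 1.07, 1.11 and 1.12 under GSK-J5, so scaling raises the GSK-J4 levels of replicates 1 and 2 most. In bulk RNA, fewer cells of a kind and less RNA per cell cannot be told apart. Under GSK-J5 at 72 h, 6 ovarian and Mullerian epithelial markers summed to 7629 to 9137 CPM in OVCAR-3, 5338 to 5579 in CAOV3 and 983 to 1078 in SKOV3, with none of the 6 at 0. The sums of 6 fibroblast markers were 36.0 to 52.6, 51.4 to 54.9 and 479 to 619 CPM in the same order, with COL3A1 and DCN at 0 in OVCAR-3 and COL3A1, DCN and LUM at 0 in CAOV3. Under GSK-J4 at 72 h those fibroblast sums were 7.40 to 42.2, 31.6 to 57.8 and 425 to 733 CPM. Leukocyte markers, 5 in number, summed to 2.47 to 5.77, 55.1 to 114 and 0.166 to 0.453 CPM under GSK-J5 at 72 h, with CD3E at 0 in all 3 lines, PTPRC at 0 in CAOV3 and LYZ at 0 in SKOV3. The sums of 5 endothelial markers were 4.91 to 5.11, 4.64 to 6.03 and 0.956 to 7.54 CPM, with TEK at 0 in CAOV3 and CDH5 and VWF at 0 in SKOV3. Their part in the values below was not tested. The tool and strand setting of the counting are not given, so reads of antisense genes that overlap ZEB1, ZEB2 or VIM cannot be told apart from theirs.

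The 3 lines held these genes at very different levels under the control compound. OVCAR-3 and CAOV3 carried the epithelial genes EPCAM, ESRP1 and GRHL2 and little or no ZEB1, ZEB2 and SNAI2. SKOV3 carried ZEB1, ZEB2, SNAI2, VIM and FN1 and little or no ESRP1, GRHL2 and OVOL1. CAOV3 stood between them for ZEB1, SNAI2, VIM and FN1, and above both for OVOL1. The test was edgeR's quasi-likelihood test over the 9 GSK-J5 libraries of 72 h, with a term for the library set. SKOV3 against OVCAR-3 had 5 of the 10 genes higher and 4 lower, where 57.5% of all 19079 genes tested were called (28% higher and 29.4% lower). SKOV3 against CAOV3 had 6 higher and 4 lower (59.8% of all genes called, 29.4% higher and 30.4% lower). CAOV3 against OVCAR-3 had 5 higher and 2 lower (54.5%, 27.6% and 26.9%). Most genes tested thus differed between any pair of lines, and the counts are read against that.

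**Figure D1:**
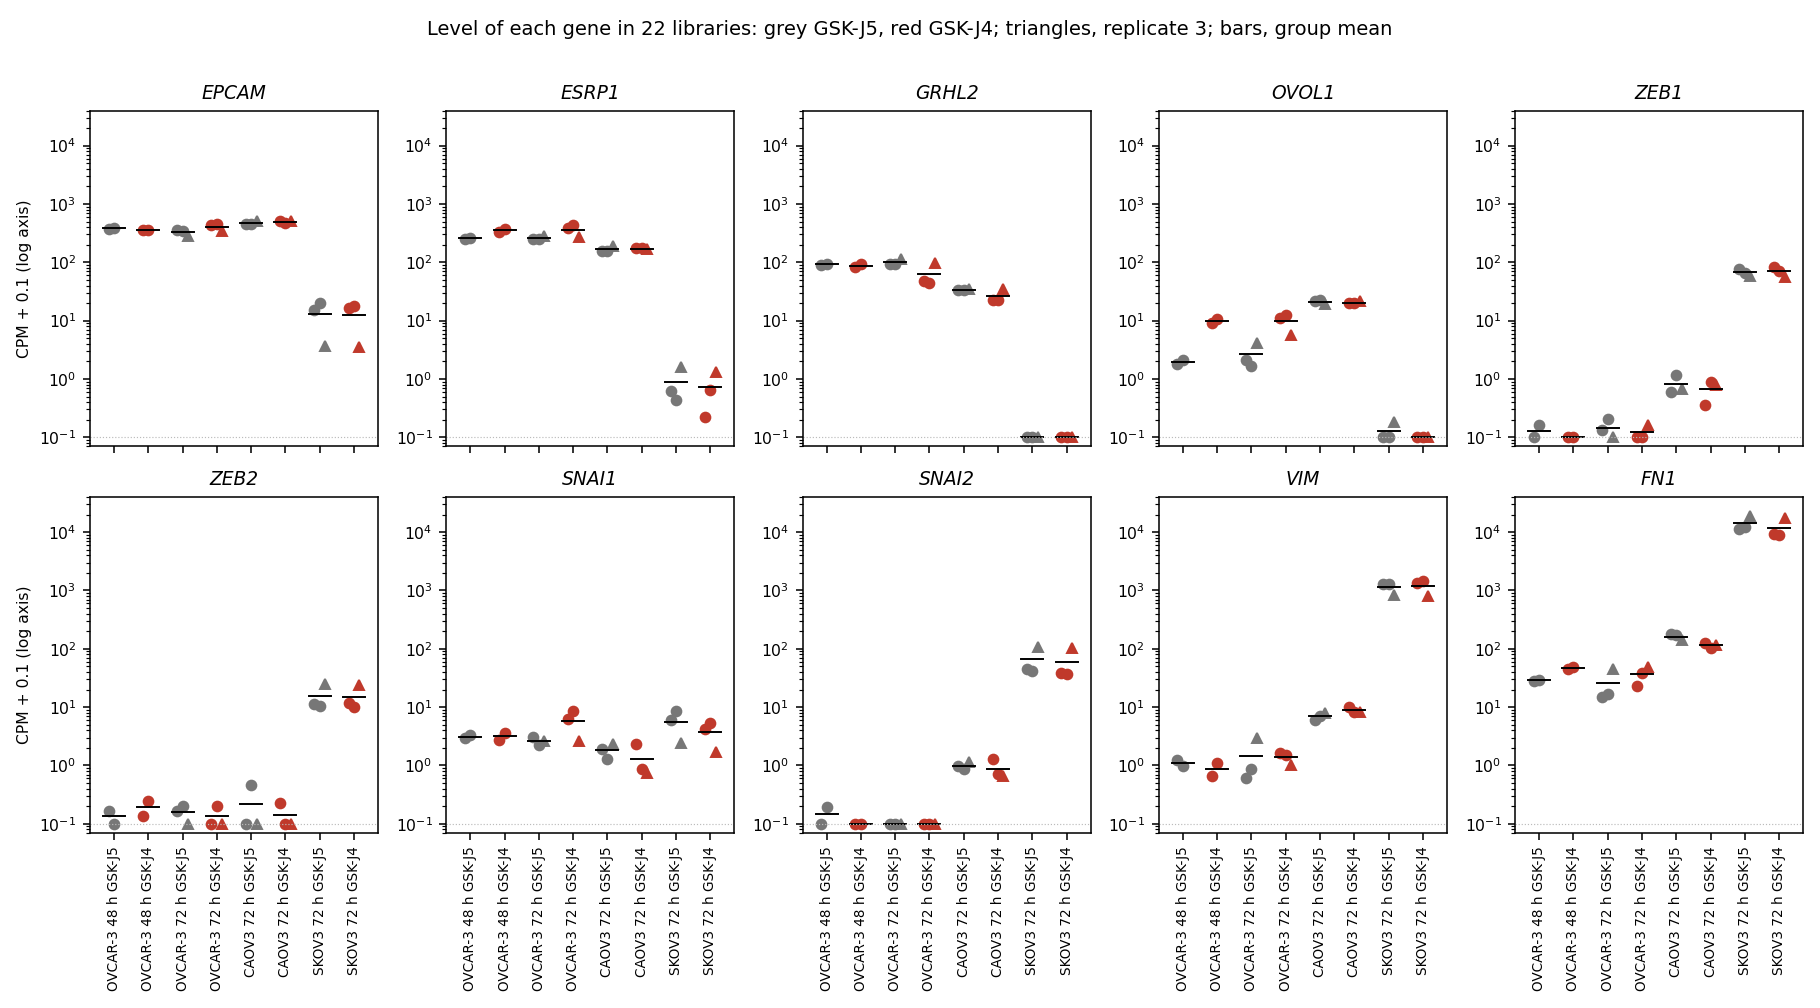
CPM plus 0.1 on a log axis for each of the 10 genes (panels) in the 8 groups of line, time and compound (x axis). Each point is 1 library, grey for GSK-J5 and red for GSK-J4, triangles mark replicate 3 and bars the group mean; points on the dotted line had no count. The SKOV3 libraries sit apart from the others in every panel but SNAI1.

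EPCAM, at chr2:47345158-47387601 (GRCh38, as all gene positions here), encodes a cell adhesion molecule of epithelia and carcinomas. Its GSK-J5 levels at 72 h were 357, 350.4 and 280.1 CPM in OVCAR-3, 451, 454 and 512 CPM in CAOV3 and 15.4, 19.9 and 3.58 CPM in SKOV3. SKOV3 lay below every library of the other lines, and CAOV3 above every one of OVCAR-3. EPCAM was 27.7-fold lower in SKOV3 than in OVCAR-3 (log2 -4.79, SE 0.456, edgeR adjusted p = 2.14e-05), whereas CAOV3 against OVCAR-3 did not pass (log2 0.56, SE 0.385, adjusted p = 0.248).

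ESRP1, on chromosome 8, encodes a splicing factor that sets epithelial exon choice. It was at 251, 255 and 286 CPM in OVCAR-3, 158, 159 and 194 CPM in CAOV3 and 0.532, 0.332 and 1.497 CPM in SKOV3, so the lines did not overlap. ESRP1 was 367-fold lower in SKOV3 (log2 -8.52, SE 0.323, edgeR adjusted p = 3.34e-08) and 1.56-fold lower in CAOV3 (log2 -0.65, SE 0.217, adjusted p = 0.0288) than in OVCAR-3. The SKOV3 values rest on 16, 11 and 36 counts.

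GRHL2, also on chromosome 8, encodes a grainyhead factor that activates epithelial junction genes. It was at 93.0, 93.2 and 115 CPM in OVCAR-3 and at 33.1, 33.2 and 34.5 CPM in CAOV3, and had no count in any of the 6 SKOV3 libraries. Against the limit that 3 counts over the SKOV3 group allow, GRHL2 was at least 2919.5-fold lower there than in OVCAR-3 and at least 975-fold lower than in CAOV3. CAOV3 stood 2.98-fold below OVCAR-3 (log2 -1.58, SE 0.130, edgeR adjusted p = 2.35e-05).

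OVOL1, at chr11:65787022-65797219, encodes a zinc-finger repressor of mesenchymal factors. Its order across the lines differed from that of ESRP1 and GRHL2, with 2.01, 1.58 and 4.04 CPM in OVCAR-3, 21.6, 22.1 and 19.4 CPM in CAOV3 and 0, 0 and 0.0832 CPM in SKOV3. OVOL1 was 8.94-fold higher in CAOV3 than in OVCAR-3 (log2 3.16, SE 0.384, edgeR adjusted p = 7.25e-05). In SKOV3 it had 2 counts over the group against 222 in OVCAR-3, a ratio of 0.00902 (95% counting interval 0.00109 to 0.0330), which covers counting error only. Of the 4 epithelial genes OVOL1 was thus the one called higher in CAOV3 than in OVCAR-3.

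ZEB1, at chr10:31318495-31529814, and ZEB2, at chr2:144364364-144524583, encode paired zinc-finger repressors of CDH1 and other epithelial genes. ZEB1 was at 0.0340, 0.103 and 0 CPM in OVCAR-3, 0.493, 1.05 and 0.578 CPM in CAOV3 and 77.4, 66.8 and 57.6 CPM in SKOV3. The OVCAR-3 values rest on 4 counts in all and those of CAOV3 on 68. CAOV3 thus carried ZEB1 at a low level above OVCAR-3 (log2 3.85, SE 0.578, edgeR adjusted p = 0.000301), and SKOV3 stood 93.4-fold above CAOV3 (log2 6.55, SE 0.322, adjusted p = 1.61e-07). ZEB2 was at 11.4, 10.5 and 25.0 CPM in SKOV3, while OVCAR-3 had 2, 3 and 0 counts and CAOV3 0, 13 and 0. ZEB2 was called higher in SKOV3 than in OVCAR-3 (log2 7.91, SE 1.03, adjusted p = 0.000116) and than in CAOV3 (log2 6.71, SE 0.926, adjusted p = 0.000157). CAOV3 against OVCAR-3 did not pass for ZEB2 (95% interval of the log2 difference -1.90 to 4.31).

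SNAI1 and SNAI2 encode the Snail and Slug repressors. SNAI2, on chromosome 8, had no count in any OVCAR-3 library of 72 h and was at 0.893, 0.774 and 1.03 CPM in CAOV3 and 45.9, 42.1 and 109 CPM in SKOV3. It was at least 25.7-fold higher in CAOV3 and at least 1802-fold higher in SKOV3 than the limit of 3 counts over the OVCAR-3 group. SKOV3 stood 65.8-fold above CAOV3 for SNAI2 (log2 6.04, SE 0.271, edgeR adjusted p = 6.85e-07). SNAI1, at chr20:49982999-49988886, did not follow that order. It was at 2.93, 2.17 and 2.56 CPM in OVCAR-3, 1.82, 1.22 and 2.23 CPM in CAOV3 and 5.88, 8.33 and 2.33 CPM in SKOV3, and OVCAR-3 overlapped both other lines. SNAI1 was called 3.001-fold higher in SKOV3 than in CAOV3 (log2 1.59, SE 0.482, edgeR adjusted p = 0.0163). Neither SKOV3 (log2 1.05, SE 0.467, adjusted p = 0.0795) nor CAOV3 (log2 -0.54, SE 0.468, adjusted p = 0.359) passed against OVCAR-3.

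VIM, at chr10:17228259-17237593, encodes the intermediate filament protein of mesenchymal cells. It was at 0.511, 0.756 and 2.87 CPM in OVCAR-3, 5.85, 7.02 and 7.84 CPM in CAOV3 and 1299.9, 1303 and 833 CPM in SKOV3, with no overlap. VIM was 885-fold higher in SKOV3 (log2 9.79, SE 0.592, edgeR adjusted p = 1.31e-06) and 5.20-fold higher in CAOV3 (log2 2.38, SE 0.490, adjusted p = 0.00294) than in OVCAR-3. FN1, at chr2:215360440-215436172, encodes fibronectin, a secreted matrix protein. It was at 14.8, 16.8 and 45.8 CPM in OVCAR-3, 176, 169.9 and 141 CPM in CAOV3 and 11388, 12113 and 18709 CPM in SKOV3, again with no overlap. FN1 was 574-fold higher in SKOV3 (log2 9.17, SE 0.425, edgeR adjusted p = 1.37e-07) and 7.16-fold higher in CAOV3 (log2 2.84, SE 0.328, adjusted p = 6.17e-05) than in OVCAR-3.

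Per kilobase of exon, the 10 genes could be ranked within a line. In OVCAR-3 under GSK-J5 at 72 h, EPCAM was the highest at 131 ± 16.9 CPM per kb (SD, n = 3), followed by ESRP1 at 54.2 ± 3.92 and GRHL2 at 16.6 ± 2.10 CPM per kb. SNAI1 at 1.51 ± 0.226, FN1 at 1.49 ± 1.002, OVOL1 at 0.661 ± 0.342 and VIM at 0.267 ± 0.251 CPM per kb stood far below. Neighbours among them overlapped within 1 SD. Within every library FN1 was above OVOL1 and OVOL1 above VIM per kb. SNAI1 was above FN1 in replicates 1 and 2 and below it in replicate 3. ZEB1, ZEB2 and SNAI2 closed the order at or near 0. CAOV3 had the same leading pair, EPCAM at 188 ± 13.7 and ESRP1 at 34.9 ± 4.17 CPM per kb (SD, n = 3), and FN1 came next at 9.37 ± 1.10. GRHL2 at 5.55 ± 0.132 and OVOL1 at 5.47 ± 0.369 CPM per kb lay within each other's spread in CAOV3.

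The order in SKOV3 was another. FN1 led at 813 ± 233 CPM per kb (SD, n = 3) and VIM followed at 222 ± 52.4. SNAI2 at 19.4 ± 11.1 and ZEB1 at 7.77 ± 1.15 CPM per kb came next and overlapped within 1 SD, as did EPCAM at 5.14 ± 3.35 and SNAI1 at 3.27 ± 1.79. Within every library, however, SNAI2 was above ZEB1 and EPCAM above SNAI1 per kb, EPCAM only slightly in replicate 3. ZEB2 was low per length at 0.624 ± 0.324 CPM per kb, over 25058 bases of exon from all its transcripts, and ESRP1 was at 0.161 ± 0.128. SKOV3 thus had measurable EPCAM beside its mesenchymal genes.

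The wider lists of state genes differed between lines in the same directions. Of all genes, 28% were called higher and 29.4% lower in SKOV3 than in OVCAR-3. The shares were 29.4% and 30.4% for SKOV3 against CAOV3 and 27.6% and 26.9% for CAOV3 against OVCAR-3. Of 37 other epithelial genes, 35 were lower and 0 higher in SKOV3 than in OVCAR-3, with a median log2 difference of -4.41 (-4.38 with genes that had no count in a line at their bound) against -0.05 over all genes. EPN3, an endocytic adaptor of epithelia, had 0 counts in SKOV3 and 86.0 ± 8.63 CPM (SD, n = 3) in OVCAR-3. RAB25, an epithelial recycling GTPase, had 2 counts in SKOV3 and 183 ± 22.03 CPM in OVCAR-3. CDH1, E-cadherin, the textbook target of the ZEB and SNAI factors and named for that, was at 271 ± 16.9 CPM in OVCAR-3, 195 ± 9.98 CPM in CAOV3 and 5.65 ± 4.74 CPM in SKOV3.

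Against CAOV3, SKOV3 had 31 of the 37 lower and 1 higher, DSP, which encodes the desmosome protein desmoplakin (log2 1.37, SE 0.223, edgeR adjusted p = 0.000424). GRHL3, a relative of GRHL2, was at least 436-fold lower in SKOV3 than in CAOV3. In CAOV3 against OVCAR-3 more of the list was lower than higher, with 16 lower and 2 higher (median -0.66 against -0.01 over all genes). Among the higher was the simple keratin KRT7 (log2 1.09, SE 0.193, edgeR adjusted p = 0.000864). ELF3, an epithelial ETS factor, was among the lower (log2 -2.43, SE 0.694, adjusted p = 0.0174). The host transcript MIR200CHG, whose miRNAs are printed above, had 10, 15 and 8 counts in the GSK-J5 libraries of OVCAR-3 at 72 h, 0, 0 and 4 in those of CAOV3 and 0 in all of SKOV3.

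Of 32 other mesenchymal genes tested, 25 were higher and 5 lower in SKOV3 than in OVCAR-3, with a median log2 difference of 4.33 (4.28 with bounds). The list shares COL1A1, COL1A2, COL3A1, DCN and LUM with the fibroblast markers. COL5A1, a fibrillar collagen chain, was at 1513 ± 222 CPM (SD, n = 3) in SKOV3 and 45.6 ± 8.45 CPM in CAOV3 and had 3 counts in OVCAR-3. PRRX1, a mesenchymal homeobox factor, was at least 922-fold higher in SKOV3 than the limit for OVCAR-3, where it had no count. TNC and TCF4 went against the list's name. TNC, a matrix glycoprotein, was lower than in OVCAR-3 in both SKOV3 (log2 -2.15, SE 0.648, edgeR adjusted p = 0.0207) and CAOV3 (log2 -5.65, SE 0.740, adjusted p = 0.000287). The E-box factor TCF4 was lower there too (log2 -3.38, SE 0.159, adjusted p = 1.07e-07 in SKOV3, and log2 -3.44, SE 0.159, adjusted p = 1.40e-07 in CAOV3).

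CAOV3 against OVCAR-3 had 15 mesenchymal genes higher and 3 lower of 32 (median 0.67, and 1.03 over the 30 genes left when those with 0 counts in 1 line and at most 3 in the other are dropped, 3 of them at their bound), with TGFBI, a matrix protein induced by TGF-beta, among the higher (log2 8.32, SE 0.344, edgeR adjusted p = 8.28e-08). In SKOV3 against CAOV3, 20 were higher and 5 lower of 32 (median 2.39). COL3A1 and POSTN, both of fibrous matrix, had 0 counts in CAOV3 and were at 21.99 ± 16.1 and 12.3 ± 13.7 CPM (SD, n = 3) in SKOV3. The collagen chain COL6A1 (log2 -2.06, SE 0.169, adjusted p = 4.04e-06) and the smooth muscle actin ACTA2 (log2 -2.52, SE 0.805, adjusted p = 0.0205) were lower in SKOV3 than in CAOV3.

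**Figure D2:**
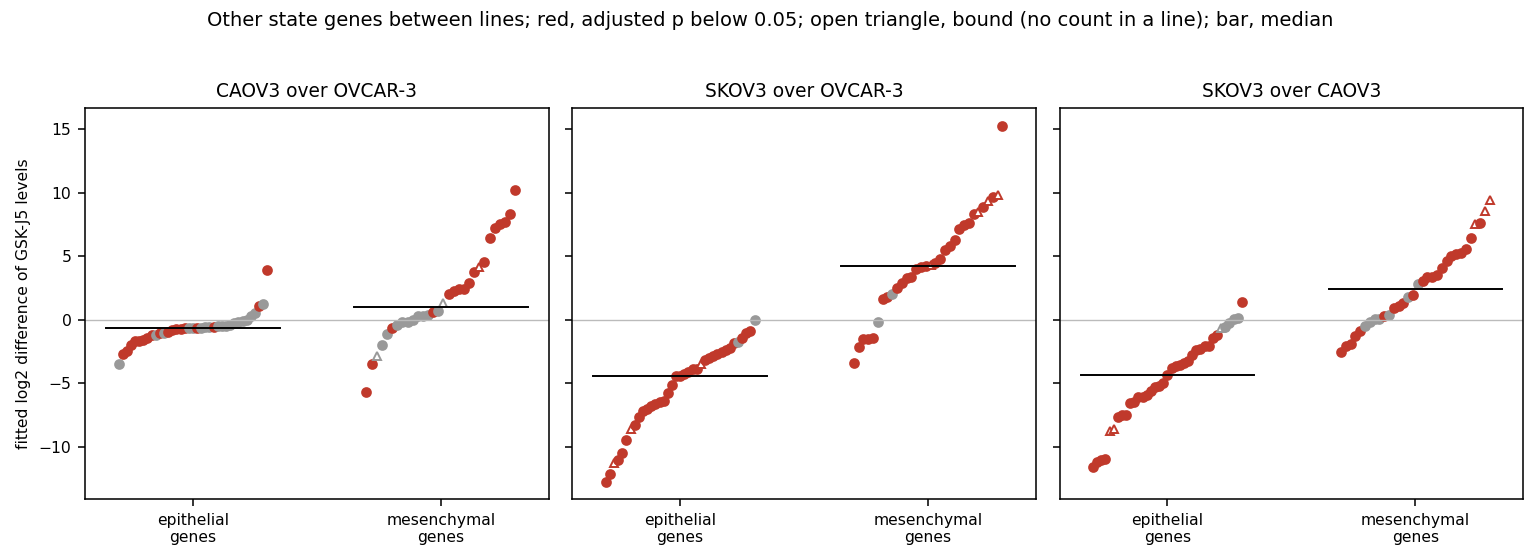
Log2 difference of GSK-J5 levels at 72 h (y axis) for the other epithelial and other mesenchymal genes (x axis) between each pair of lines. Each point is 1 gene, red where the edgeR adjusted p was below 0.05, open triangles are bounds for genes with no count in 1 line, and bars are medians. In SKOV3 over OVCAR-3, 35 of 37 epithelial genes were called lower and 25 of 32 mesenchymal genes higher.

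The cell-surface receptors of fibronectin followed the order of FN1 in part. Of 8 receptor genes tested, 7 were higher and 1 lower in SKOV3 than in OVCAR-3. Of all genes, 57.5% were called in that comparison, 59.8% in SKOV3 against CAOV3 and 54.5% in CAOV3 against OVCAR-3. The integrin subunit ITGB3 was at 0.512 ± 0.637 CPM in OVCAR-3 and 48.0 ± 16.4 CPM (SD, n = 3) in SKOV3 (log2 6.59, SE 0.772, edgeR adjusted p = 7.67e-05). ITGA4 was higher too (log2 5.36, SE 0.674, adjusted p = 7.89e-05), and ITGB5, another beta subunit, was the one lower gene (log2 -1.97, SE 0.177, adjusted p = 7.94e-06). ITGA5, the alpha subunit of the classical fibronectin receptor, was higher in SKOV3 than in CAOV3 (log2 2.23, SE 0.198, adjusted p = 6.93e-06), where 5 of 8 were higher and 1 lower. CAOV3 against OVCAR-3 had 3 higher, including ITGA4 (log2 3.74, SE 0.659, adjusted p = 0.000859) and ITGB1 (log2 1.01, SE 0.152, adjusted p = 0.000309), and 1 lower, ITGB5.

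Partners and turnover factors of the SNAI and ZEB proteins differed between lines in both directions. Of 12 genes, 5 were higher and 3 lower in SKOV3 than in OVCAR-3, 7 higher and 2 lower in CAOV3 than in OVCAR-3, and 3 higher and 6 lower in SKOV3 than in CAOV3. Of all genes, 57.5%, 54.5% and 59.8% were called in the same order, and the counts are read against those shares. LATS2, a Hippo kinase that phosphorylates SNAI1, was higher in SKOV3 than in OVCAR-3 (log2 1.75, SE 0.135, edgeR adjusted p = 2.66e-06). The F-box genes BTRC (log2 -1.08, SE 0.128, adjusted p = 5.15e-05) and FBXL14 (log2 -0.97, SE 0.163, adjusted p = 0.000578), whose products mark SNAI1 for degradation, were lower there. KDM1A, the demethylase LSD1 that SNAI1 recruits, was at 350.5 ± 58.6 CPM (SD, n = 3) in CAOV3, 116 ± 22.7 CPM in OVCAR-3 and 191 ± 35.4 CPM in SKOV3.

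GSK-J4 changed 1 of these genes in OVCAR-3 at 48 h, OVOL1, which rose 5.29-fold. At 48 h OVOL1 was at 1.69 and 2.03 CPM under GSK-J5 and at 8.89 and 10.4 CPM under GSK-J4, in counts 49 and 66 against 254 and 283. The groups did not overlap, and both pairs of same-numbered libraries differed alike, by ratios of 5.27 and 5.13. Of the 7 genes tested this was the one call (log2 2.40, SE 0.556, edgeR adjusted p = 0.0310), where 18.9% of all 17402 genes were called, 11.3% higher and 7.63% lower. The fit takes its spread from the 72 h libraries too. The call was lost without any 1 of the 4 libraries of 48 h (adjusted p 0.127 to 0.174) and with the replicate number as a block (0.0638), at log2 changes of 2.29 to 2.54 without a library.

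The other genes of OVCAR-3 at 48 h did not pass. FN1 was at 28.1 and 29.3 CPM under GSK-J5 and 44.1 and 48.1 CPM under GSK-J4 (log2 0.71, SE 0.311, edgeR adjusted p = 0.121), and ESRP1 at 247 and 266 CPM against 335 and 379 CPM (log2 0.51, SE 0.229, adjusted p = 0.130). For neither gene did the compounds overlap, and both passed with replicates 1 and 2 alone (adjusted p = 0.0181 and 0.000636), which leaves out the third replicates of 72 h and calls 3 of 7 genes where 59% of all genes were called. GRHL2 was at 90.7 and 92.8 CPM against 82.3 and 93.3 CPM (95% interval of the log2 change -0.44 to 0.37). EPCAM was at 377 and 388 CPM against 363 and 355 CPM (interval -0.37 to 0.25) and SNAI1 at 2.82 and 3.23 CPM against 2.59 and 3.54 CPM (interval -0.996 to 1.09). The compounds overlapped for GRHL2 and SNAI1 and did not for EPCAM, and none of these 3 genes changed by the test. VIM, near 1 CPM, had an interval of -2.07 to 1.36, and ZEB1, ZEB2 and SNAI2, with at most 4 counts in any OVCAR-3 library, were not tested.

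At 72 h in OVCAR-3 the libraries of replicates 1 and 2 and those of replicate 3 gave different pictures. OVOL1 was at 2.01, 1.58 and 4.04 CPM under GSK-J5 and at 10.97, 12.4 and 5.63 CPM under GSK-J4, with pair ratios of 5.46, 7.86 and 1.39. The groups did not overlap, but replicate 3 showed far less difference than the others. GRHL2 was at 93.0, 93.2 and 115 CPM under GSK-J5 and at 48.2, 43.7 and 96.5 CPM under GSK-J4, with pair ratios of 0.518, 0.469 and 0.839. Its GSK-J4 library of replicate 3 lay within the GSK-J5 range. With all 6 libraries and a set term, neither OVOL1 (log2 1.96, SE 0.559, edgeR adjusted p = 0.0711) nor GRHL2 (log2 -0.78, SE 0.185, adjusted p = 0.0700) passed.

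None of the 7 genes tested was called in OVCAR-3 at 72 h by edgeR, where 0.0298% of all 16802 genes were. The genes with an unadjusted p below 0.05 were 2, OVOL1 and GRHL2, where 43.1% of all genes were below it, and DESeq2's Wald test called 2 of the 10, where it called 37.7% of all genes. Both counts are read against those shares. SNAI1 was at 2.93, 2.17 and 2.56 CPM under GSK-J5 and 6.15, 8.53 and 2.55 CPM under GSK-J4, higher in replicates 1 and 2 and level in replicate 3 (log2 1.02, SE 0.447, edgeR adjusted p = 0.134). ESRP1 was at 251, 255 and 286 CPM against 383, 429 and 275 CPM (log2 0.42, SE 0.231, adjusted p = 0.202) and FN1 at 14.8, 16.8 and 45.8 CPM against 22.7, 38.6 and 49.0 CPM (log2 0.65, SE 0.307, adjusted p = 0.155), again with little difference in replicate 3. EPCAM was at 357, 350.4 and 280.1 CPM against 436, 452 and 342 CPM, with alike pair ratios of 1.22, 1.29 and 1.22 (log2 0.30, SE 0.154, adjusted p = 0.179). On library totals without TMM factors the log2 change of EPCAM was -0.09 and that of VIM -0.15, against 0.30 and 0.25 with them. VIM was at 0.511, 0.756 and 2.87 CPM against 1.54, 1.39 and 0.912 CPM, highest in the GSK-J5 library of replicate 3.

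With replicates 1 and 2 alone, all 7 genes tested were called at 72 h in OVCAR-3, 6 higher and GRHL2 lower, where 71.7% of all genes were called, 34.6% higher and 37.1% lower. The count is read against those shares. OVOL1 (log2 2.77, SE 0.212, edgeR adjusted p = 5.53e-06), SNAI1 (log2 1.60, SE 0.259, adjusted p = 0.000526) and GRHL2 (log2 -0.95, SE 0.102, adjusted p = 4.19e-05) were among them, and the log2 changes of the others were 1.27 for VIM, 1.02 for FN1, 0.75 for ESRP1 and 0.40 for EPCAM. After TMM scaling, the epithelial EPCAM, ESRP1 and OVOL1 and the mesenchymal SNAI1, VIM and FN1 were thus all higher in these libraries. The epithelial factor GRHL2 was lower. VIM rests on 29 and 27 counts under GSK-J4 against 15 and 22 under GSK-J5. The wider lists moved both ways in this fit, with 11 higher and 15 lower of 37 other epithelial genes. Of 23 other mesenchymal genes, 5 were higher and 7 lower. The direction of EPCAM depends on the TMM scaling. It had 8224 and 8806 counts of totals of 24305501 and 25445656 under GSK-J4. Under GSK-J5 it had 10489 and 10195 of 27393731 and 26257563, a higher share of the total. Medium, kit and the wording on poly(A) differ together in the labels between replicate 3 and the others and cannot be told apart.

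Whether the response of OVCAR-3 differed between 48 h and 72 h was asked by the interaction of compound and time. None of the 7 genes tested passed by edgeR (0.00575% of all genes did), and 1, GRHL2, had an unadjusted p below 0.05 (log2 -0.71, SE 0.229, adjusted p = 0.542), as had 7.35% of all genes. With replicates 1 and 2 alone 3 genes passed, where 27% of all genes were called. GRHL2 had a lower effect at 72 h than at 48 h (log2 -0.92, SE 0.128, edgeR adjusted p = 0.000702), and EPCAM (log2 0.46) and SNAI1 (log2 1.55) had higher ones. For OVOL1 the 95% interval of that time difference was -0.24 to 0.98.

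In CAOV3, GSK-J4 lowered 1 of 9 genes tested, FN1, where 0.315% of all 17137 genes were called, 0.0642% higher and 0.251% lower. FN1 was at 176, 169.9 and 141 CPM under GSK-J5 and at 123, 105 and 115 CPM under GSK-J4. Every GSK-J4 library lay below every GSK-J5 library, and the pair ratios were 0.700, 0.617 and 0.819. The change (log2 -0.49, SE 0.0983, edgeR adjusted p = 0.0403) kept its direction but not its call with the replicate block (adjusted p = 0.113), without the set term (0.624), in a fit of all 18 libraries of 72 h (0.504) and without any 1 of the 4 libraries of replicates 1 and 2 (0.271 to 0.536).

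GRHL2 in CAOV3 was at 33.1, 33.2 and 34.5 CPM under GSK-J5 and at 22.3, 22.8 and 34.7 CPM under GSK-J4. The GSK-J4 libraries of replicates 1 and 2 were low and that of replicate 3 was level with its control. The change did not pass with all libraries (log2 -0.37, SE 0.139, edgeR adjusted p = 0.187) and passed with replicates 1 and 2 alone (log2 -0.58, SE 0.137, adjusted p = 0.00943), where 14.1% of all genes were called, 6.7% higher and 7.38% lower, and where FN1 was the other call. OVOL1 was at 21.6, 22.1 and 19.4 CPM against 19.9, 19.8 and 21.4 CPM, with overlap and a 95% interval of the log2 change of -0.34 to 0.25. The intervals were -0.08 to 0.23 for EPCAM and -0.16 to 0.20 for ESRP1. VIM was at 5.85, 7.02 and 7.84 CPM against 9.96, 8.06 and 8.25 CPM, without overlap but short of the test (log2 0.35, SE 0.210, adjusted p = 0.434). SNAI1, at 1.82, 1.22 and 2.23 CPM against 2.21, 0.784 and 0.646 CPM, had a wide interval of -1.73 to 0.60, as had ZEB1 (-2.19 to 1.60) and SNAI2 (-1.72 to 1.32) at about 1 CPM.

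In SKOV3 none of the 8 genes tested was called by edgeR, where 0.0412% of all 16981 genes were (0.0236% higher and 0.0177% lower). An unadjusted p below 0.05 was found for 3, FN1, SNAI1 and SNAI2, each lower under GSK-J4 in 3 of 3 pairs, where 3.5% of all genes were below it. FN1 was at 11388, 12113 and 18709 CPM under GSK-J5 and at 9227, 8953 and 17824 CPM under GSK-J4 (log2 -0.27, SE 0.0628, adjusted p = 0.346). It passed by DESeq2's Wald test (adjusted p = 0.0497), by edgeR with no low-count filter (0.000216) and by edgeR without the GSK-J5 library of replicate 3 (0.0120) or its GSK-J4 counterpart (0.0120). Each of the last 2 fits leaves 1 library of replicate 3 alone in its set, so the change rests on replicates 1 and 2. With replicates 1 and 2 alone and no set term, no member passed (FN1 edgeR adjusted p = 0.0696), where 0.0908% of all genes did. SNAI1 was at 5.88, 8.33 and 2.33 CPM against 4.06, 5.35 and 1.59 CPM, with pair ratios of 0.691, 0.642 and 0.684 (log2 -0.58, SE 0.236, adjusted p = 0.999). The ratios were alike although the level of SNAI1 differed about 3-fold between the library sets.

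SNAI2 in SKOV3 was at 45.9, 42.1 and 109 CPM under GSK-J5 and at 38.1, 36.3 and 103 CPM under GSK-J4 (log2 -0.19, SE 0.0823, edgeR adjusted p = 0.999). The remaining mesenchymal genes showed overlapping compounds. ZEB1 was at 77.4, 66.8 and 57.6 CPM against 83.3, 70.2 and 56.8 CPM (95% interval of the log2 change -0.13 to 0.24), ZEB2 at 11.4, 10.5 and 25.0 against 11.7, 9.77 and 23.7 CPM (-0.33 to 0.24) and VIM at 1299.9, 1303 and 833 against 1354, 1473 and 793 CPM (-0.07 to 0.18). EPCAM was at 15.4, 19.9 and 3.58 CPM against 16.1, 17.8 and 3.38 CPM (-0.39 to 0.26). The epithelial genes that SKOV3 lacked stayed at or near 0 under GSK-J4: GRHL2 and OVOL1 had no count in any GSK-J4 library, and ESRP1 had 4, 21 and 31 counts against 16, 11 and 36.

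**Figure D3:**
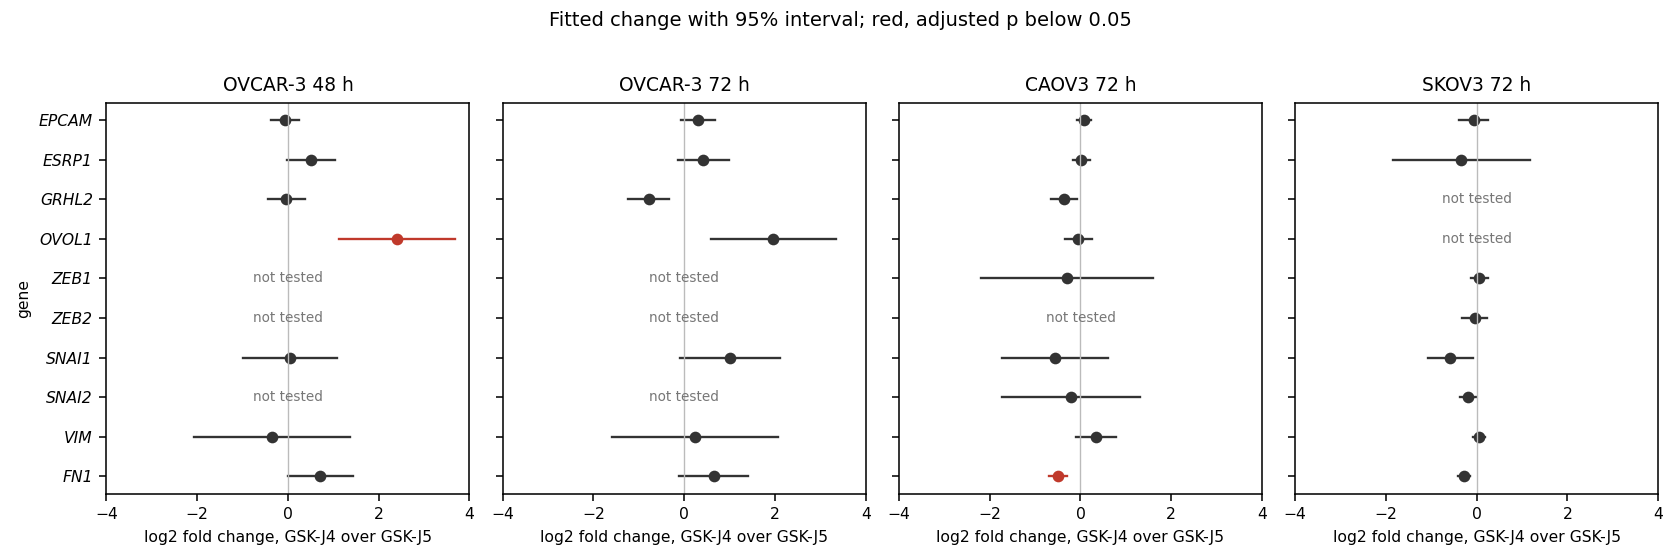
Fitted log2 change of GSK-J4 over GSK-J5 (x axis) for each gene (y axis) in the 4 comparisons of line and time, with 95% intervals. Red marks an edgeR adjusted p below 0.05, which holds for OVOL1 in OVCAR-3 at 48 h and FN1 in CAOV3; genes with too few counts are marked as not tested.

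By the interaction test, the response of FN1 was called different between OVCAR-3 and both other lines at 72 h. In the fit of all 18 libraries of 72 h, the effect of GSK-J4 on FN1 was lower in CAOV3 (log2 -1.16, SE 0.275, edgeR adjusted p = 0.0122) and in SKOV3 (log2 -0.93, SE 0.274, adjusted p = 0.0292) than in OVCAR-3, where the log2 value is the difference of the effects. These 2 differences share the OVCAR-3 libraries. The effect on OVOL1 was lower in CAOV3 than in OVCAR-3 (log2 -2.002, SE 0.526, adjusted p = 0.0234). The fit takes 1 spread per gene from all lines together. In the fit of OVCAR-3 alone the SE of its effect was larger, 0.307 for FN1 and 0.559 for OVOL1, and neither passed. The calls thus lean on the spread of the other lines too. Of the 10 genes, 2 were called lower for CAOV3 against OVCAR-3, where 19.3% of all genes were called (6.63% higher and 12.7% lower). For SKOV3 against OVCAR-3 the count was 1 of 10, where 20.8% were called (7.82% higher and 13% lower). Both counts are close to what the background shares give for 10 genes. Genes with hardly a count in a line (ZEB1, ZEB2 and SNAI2 in OVCAR-3, GRHL2 and OVOL1 in SKOV3) could show no difference there. With replicates 1 and 2 alone 3 and 4 genes were called, where 41.5% and 42% of all genes were. On library totals without TMM factors the FN1 differences were -0.78 (adjusted p = 0.0394) and -0.52 (adjusted p = 0.139).

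The differences rested on single libraries to different degrees. FN1 in CAOV3 against OVCAR-3 lost its call without the GSK-J5 library of OVCAR-3 replicate 1 (edgeR adjusted p = 0.0523) and kept it without any other. FN1 in SKOV3 against OVCAR-3 lost its call without any 1 of the 6 SKOV3 libraries (0.0556 to 0.0821), without the GSK-J5 library of OVCAR-3 replicate 1 (0.108) or 2 (0.0897), without its GSK-J4 library of replicate 2 (0.0611) and without the GSK-J5 library of CAOV3 replicate 2 (0.0503). OVOL1 in CAOV3 against OVCAR-3 lost its call without any 1 of the 6 CAOV3 libraries (0.0541 to 0.0608) and any 1 of the 4 OVCAR-3 libraries of replicates 1 and 2 (0.0611 to 0.0867). Between SKOV3 and CAOV3 no gene of the 10, and none of all 20252 genes (0%), differed in its response by edgeR, with 1077 genes (5.32%) and none of the 10 at an unadjusted p below 0.05. DESeq2's Wald test called 0 of the 10 and 0.0346% of all genes. The GRHL2 effects of CAOV3 and OVCAR-3 did not differ beyond their error (95% interval -0.15 to 0.94).

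**Figure D4:**
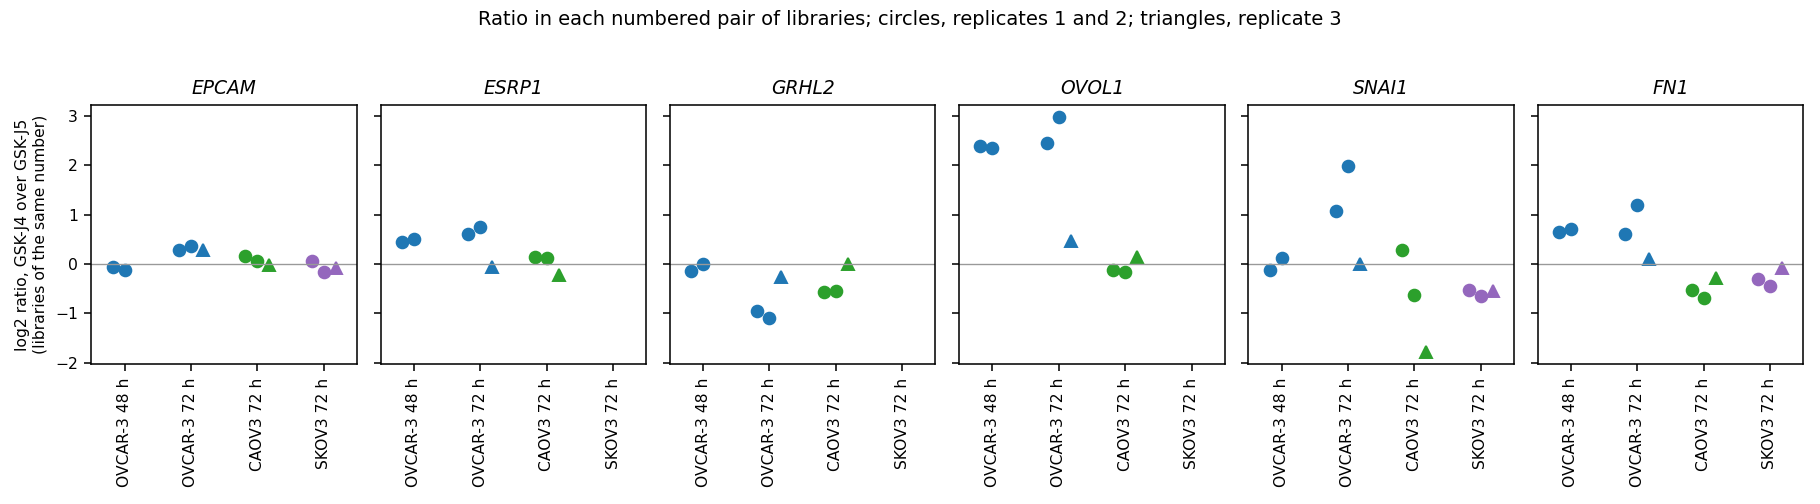
Log2 ratio of GSK-J4 over GSK-J5 between libraries of the same replicate number (y axis) in each line and time (x axis) for 6 of the genes, where the gene reached a mean of 1 CPM. Circles are replicates 1 and 2 and triangles replicate 3. OVOL1 in OVCAR-3 at 72 h lies at 2.45 and 2.98 in replicates 1 and 2 and at 0.48 in replicate 3, and SNAI1 in SKOV3 is below 0 in all 3 pairs.

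Among the other epithelial genes, 4 rose and 6 fell of 37 in OVCAR-3 at 48 h, where 11.3% of all genes were called higher and 7.63% lower. The tight-junction gene OCLN rose from 26.8 ± 4.06 to 87.1 ± 8.67 CPM (SD, n = 2 per group; log2 1.73, SE 0.245, edgeR adjusted p = 0.0142) and KRT7, which is also among the ovarian and Mullerian markers, from 609 ± 3.77 to 1601 ± 112 CPM (log2 1.42, SE 0.378, adjusted p = 0.0399). KRT19, another simple keratin, fell from 1219 ± 4.74 to 397 ± 23.8 CPM (log2 -1.59, SE 0.275, adjusted p = 0.0183), and EPN3 fell from 89.8 ± 3.67 to 30.1 ± 1.29 CPM (log2 -1.55, SE 0.425, adjusted p = 0.0424). The list's median was 0.05 against -0.03 over all genes. These 2 keratins thus moved in opposite directions.

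Of 24 other mesenchymal genes tested in OVCAR-3 at 48 h, 3 rose and 0 fell, with a median of -0.18. Of all genes, 11.3% were called higher and 7.63% lower there. FBN1, which encodes the microfibril protein fibrillin-1, rose from 3.21 ± 0.185 to 17.4 ± 1.003 CPM (SD, n = 2 per group; log2 2.47, SE 0.582, edgeR adjusted p = 0.0321), and CAV1, the caveolar coat gene, from 8.56 ± 0.0815 to 15.97 ± 0.545 CPM (log2 0.93, SE 0.271, adjusted p = 0.0485). Of the 12 partners and turnover factors, LATS2 rose (log2 0.99, SE 0.159, adjusted p = 0.0165) and none fell. Of 7 fibronectin receptors tested, SDC4, a syndecan, rose (log2 0.59, SE 0.167, adjusted p = 0.0453) and ITGB5 fell (log2 -1.34, SE 0.277, adjusted p = 0.0247). With replicates 1 and 2 alone, the mesenchymal list had 4 higher and 7 lower of 23 at 48 h. The epithelial list then had 11 higher and 13 lower of 37, the partners 7 and 2 of 12, and the receptors 1 and 2 of 7. Of all genes, 59% were called in that fit, and these counts are read against that share. The fibroblast markers summed to 41.7 to 42.4 CPM under GSK-J5 and 12.3 to 13.8 CPM under GSK-J4 at 48 h, with COL3A1 and PDGFRA at 0 under GSK-J4. The ovarian and Mullerian epithelial markers summed to 8625 to 8749.9 CPM and 5467 to 5633 CPM in the same order, with 1 of 6 called higher and 3 lower. The endothelial sums were 4.61 to 5.42 and 1.44 to 1.86 CPM, and the leukocyte sums 1.38 to 2.06 and 0.773 to 0.910 CPM. The part of these markers in the values above was not tested.

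At 72 h no gene of these 4 lists was called in OVCAR-3, CAOV3 or SKOV3 by edgeR with all libraries. The median log2 change of the epithelial list was -0.06, -0.01 and -0.07 in the 3 lines, against -0.08, -0.01 and 0.00 over all genes, and that of the mesenchymal list -0.12, -0.06 and 0.10. With replicates 1 and 2 alone, the epithelial list had 11 higher and 15 lower of 37 in OVCAR-3, 6 higher and 6 lower of 36 in CAOV3 and 0 higher and 0 lower of 29 in SKOV3. The mesenchymal list had 5 higher and 7 lower of 23 in OVCAR-3, 1 higher and 4 lower of 27 in CAOV3 and 1 higher and 0 lower of 33 in SKOV3. Of all genes, 71.7% were called in OVCAR-3, 14.1% in CAOV3 and 0.0908% in SKOV3 in these fits, and the counts are read against those shares. Neither list moved in 1 direction in OVCAR-3 or CAOV3 by these counts.

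The library sets differed in SKOV3 under both compounds alike. EPCAM was 4.93-fold lower in replicate 3 than in the mean of replicates 1 and 2 under GSK-J5 and 5.01-fold lower under GSK-J4, and SNAI1 was 3.05-fold and 2.95-fold lower. SNAI2 was 2.48-fold and 2.78-fold higher in replicate 3, ZEB2 2.28-fold and 2.21-fold, and FN1 1.59-fold and 1.96-fold. CDH1 in SKOV3 was at 6.74, 9.75 and 0.457 CPM under GSK-J5 and at 4.55, 5.32 and 1.01 CPM under GSK-J4. VIM went the other way, 1.56-fold and 1.78-fold lower in replicate 3, as did ZEB1, 1.25-fold and 1.35-fold lower. Each ratio sets 1 library against 2 and carries no test.

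Across the 22 libraries, the genes most like each member in log2(CPM + 1) follow the line differences, since libraries of 1 line share their level. Pearson's r, among genes with a mean of at least 2 CPM, was highest for PTPN6 (0.994) and SCNN1A (0.994) with EPCAM, for CDKN2A (0.996) and ILDR1 (0.995) with ESRP1, and for ARHGEF16 (0.996) and CDKN2B (0.994) with GRHL2. B4GALT1 (0.989) and LRRC1 (0.984) were most like OVOL1. With ZEB1 went ZIC5 (0.996), with ZEB2 IGFN1 (0.998) and LINC01705 (0.997), with SNAI2 APCDD1L (0.994), with VIM HOXB8 (0.993) and THBD (0.993), and with FN1 APCDD1L (0.991) and ATP9B (0.990). SNAI1 had the loosest likeness, TPD52L1 (0.880) and HNRNPK (0.870). These values are descriptions, with 3 lines behind 22 points.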

How the data were processed

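RNA of 3 cell lines was sequenced, and the authors deposited 1 table of raw counts per gene and library for each line, 22 libraries from 14 GEO samples. STAR, DESeq2 and GRCh38 (hg38) are named in the submitters' processing notes, without versions. Which tool counted the reads, on which annotation and strand, is not given in the sources used here. Of 58825 gene IDs, 58472 were named from a gene name table and 345 from GENCODE 29. The column header of 1 OVCAR-3 library under GSK-J4 was read as 72 h, replicate 3, the sample left for it.

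Counts were tested with edgeR 4.0.16 in R 4.3.3: filterByExpr with a minimum count of 10, TMM, the quasi-likelihood F test, Benjamini-Hochberg adjustment over all genes and a threshold of 0.05, with a term for the library set. Each line was fitted alone for 72 h. The 10 OVCAR-3 libraries were fitted together for 48 h and for time, the 9 GSK-J5 libraries of 72 h for control levels and the 18 libraries of 72 h for differences of effect. Per-kb levels divide by the union of the exons of all transcripts of a gene in GENCODE 29. That length was 25058 bases for ZEB2 and 17315 for FN1, and the per-kb levels and ranks depend on this choice. Intervals are 95%. The scripts were tested on simulated data. No 2 libraries of a group matched within counting noise (chi-square per degree of freedom 8.06 to 285).

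Members and gene lists were chosen with earlier results of these data known. The named genes are the 10 members, from each list the 2 highest and 2 lowest called genes with a mean of at least 1 CPM, of which the text gives most, and for likeness the 2 genes of highest Pearson r with a pseudocount of 1. Some genes that this rule picks are not reported here. With 3 pairs, every correlation of deviations from the group mean was above 0.1 in SKOV3 alone (0.608, 0.617 and 0.876), where the block changed no call of a member. These deviations hold the difference between library sets, which was alike under both compounds in SKOV3. They therefore do not show pairing by number. With 2 pairs, as in OVCAR-3 at 48 h (0.212 for both), no pairing is read from the data. Alternatives were DESeq2 1.42.0 (size factors, Wald test), a fit without the low-count filter, without the set term, with the replicate block, with replicates 1 and 2 alone, pooled fits and leaving out each library. A filter by group size and library totals without TMM were chosen after seeing the data.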

Additional observations from a re-analysis of the deposited data

Results flagged for a closer look

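The GSK-J4 effect was called different between lines at 72 h for OVOL1 and FN1 by edgeR's interaction test, which takes 1 spread per gene from all lines. For OVOL1 the difference of CAOV3 and OVCAR-3 was -2.002 on the log2 scale (SE 0.526, adjusted p = 0.0234), with pair ratios of 5.46, 7.86 and 1.39 in OVCAR-3 and 0.920, 0.893 and 1.10 in CAOV3. For FN1 it was -1.16 between CAOV3 and OVCAR-3 (SE 0.275, adjusted p = 0.0122) and -0.93 between SKOV3 and OVCAR-3 (SE 0.274, adjusted p = 0.0292). The pair ratios of FN1 were 1.53, 2.29 and 1.07 in OVCAR-3, 0.700, 0.617 and 0.819 in CAOV3 and 0.810, 0.739 and 0.953 in SKOV3. Replicate 3 had the ratio nearest to 1 in each of these lines for FN1. With replicates 1 and 2 alone the 3 differences were -2.86, -1.58 and -1.32 (edgeR adjusted p = 4.60e-06, 0.000490 and 0.00157). Without the set term none of the 3 passed (adjusted p = 0.0719, 0.285 and 0.444).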

How the results depend on the processing

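Of 1946 log2 changes of single genes under the alternatives, 1731 kept their direction and their side of the threshold, 79 passed it, 50 no longer did and 86 changed sign, 81 of these with no call in either fit. Counts of the 10 genes called moved as follows, with the share of all genes called in the same fit in parentheses. OVCAR-3 at 48 h had 1 call in the reported fit, 2 (12.9%) with no low-count filter, 0 (3.48%) with the replicate block, 3 (59%) with replicates 1 and 2 alone, 3 (62%) with the 4 libraries of 48 h alone, and 0 to 3 (0% to 56.1%) without 1 library. OVCAR-3 at 72 h had 0, against 2 (37.7%) by DESeq2's Wald test, 7 (71.7%) with replicates 1 and 2 alone, 3 (43.8%) in the fit of 10 OVCAR-3 libraries, 4 (37.7%) in the fit of 18 libraries and 0 to 7 (0% to 67.6%) without 1 library. It had 7 (67.6%) without the GSK-J5 and 7 (65.4%) without the GSK-J4 library of replicate 3. Where 1 library of replicate 3 is left out of a treatment effect, the other of that line is alone in its set. The GSK-J4 change of that line then rests on replicates 1 and 2, here and for VIM below. CAOV3 had 1, against 0 (0%) with no set term, 0 (0%) with the replicate block, 0 (0%) in the fit of 18 libraries, 2 (14.1%) with replicates 1 and 2 alone and 0 to 2 (0% to 14.4%) without 1 library. SKOV3 had 0, against 1 (0.112%) by DESeq2's Wald test, 1 (0.113%) with no low-count filter and 0 to 1 (0.0241% to 0.158%) without 1 library. The time difference had 0, against 3 (27%) with replicates 1 and 2 alone and 0 to 3 (0% to 25.2%) without 1 library. The difference of effect between CAOV3 and OVCAR-3 had 2, against 0 (3.53%) with no set term, 1 (6.6%) with the replicate block and 0 to 6 (7.87% to 38.7%) without 1 library. That between SKOV3 and OVCAR-3 had 1, against 2 (14.3%) with no low-count filter, 0 (4.14%) with no set term, 0 (6.39%) with the replicate block, 0 (23%) on library totals without TMM, 4 (42%) with replicates 1 and 2 alone and 0 to 6 (7.91% to 39.5%) without 1 library. Without 1 library, the control levels gave 6 to 8 (45.7% to 60.5%) calls for CAOV3 against OVCAR-3, 9 to 10 (48.8% to 59.2%) for SKOV3 against OVCAR-3 and 9 to 10 (54.3% to 64.2%) for SKOV3 against CAOV3. The cause of these changes was not tested. The 5 sign changes with a call were of VIM. Its effect difference of CAOV3 and OVCAR-3 was -0.84 without the GSK-J5 and -0.84 without the GSK-J4 library of OVCAR-3 replicate 3, in a range of -0.84 to 0.73 without 1 library. That of SKOV3 and OVCAR-3 was -1.12 and -1.12 without the same libraries, in a range of -1.12 to 0.45, and -1.08 with replicates 1 and 2 alone. The other sign changes had no call in either fit. On library totals without TMM the log2 change was -0.17 for SNAI1 in OVCAR-3 at 48 h, -0.087 for EPCAM and -0.15 for VIM at 72 h, and -0.011 for ESRP1 in CAOV3. On the same totals the difference of effect was 0.13 (CAOV3 and OVCAR-3) and 0.030 (SKOV3 and OVCAR-3) for EPCAM, and 0.014 for SNAI1 and 0.026 for SNAI2 (SKOV3 and CAOV3). In replicates 1 and 2 alone the log2 value was 0.078 for SNAI2 in CAOV3, 0.24, 0.37 and 0.31 for the time differences of ESRP1, OVOL1 and FN1, 0.082 and -0.74 for SNAI2 and VIM between CAOV3 and OVCAR-3, and 0.17 for OVOL1 between SKOV3 and CAOV3. VIM in OVCAR-3 at 72 h was at -0.16 with no set term and -0.0083 in the fit of 18 libraries, and its difference of SKOV3 and OVCAR-3 at -0.089 by DESeq2. With the replicate block SNAI1 and SNAI2 were at 0.092 and 0.025 between SKOV3 and CAOV3, and SNAI2 at 0.036 with no set term. Without 1 library, the ranges that held a sign change were in OVCAR-3 at 48 h -0.11 to 0.039 for GRHL2 and -0.18 to 0.24 for SNAI1, in OVCAR-3 at 72 h -0.30 to 1.28 for VIM, in CAOV3 -0.011 to 0.11 for ESRP1, -0.16 to 0.0050 for OVOL1, -0.73 to 0.17 for ZEB1 and -0.58 to 0.079 for SNAI2, in SKOV3 -0.18 to 0.066 for EPCAM, -0.98 to 0.038 for ESRP1, -0.030 to 0.11 for ZEB1 and -0.13 to 0.016 for ZEB2. Further such ranges were in the time difference -0.18 to 0.24 for ESRP1, -0.81 to 0.37 for OVOL1 and -0.38 to 0.30 for FN1, in the effects of CAOV3 and OVCAR-3 -0.95 to 3.77 for ZEB1, -3.95 to 3.88 for ZEB2 and -0.60 to 0.080 for SNAI2, in those of SKOV3 and OVCAR-3 -0.55 to 4.19 for ZEB1 and -0.29 to 3.10 for ZEB2, in those of SKOV3 and CAOV3 -0.23 to 0.0034 for EPCAM, -3.09 to 0.051 for OVOL1, -0.10 to 0.76 for ZEB1, -3.27 to 4.55 for ZEB2, -0.53 to 0.71 for SNAI1 and -0.25 to 0.41 for SNAI2, and in the control levels of CAOV3 and OVCAR-3 -3.97 to 1.90 for ZEB2. Correlations of same-numbered libraries were 0.144, 0.0672 and 0.385 in CAOV3, -0.0746, 0.0368 and 0.00318 in OVCAR-3 at 72 h and 0.212 for both pairs of OVCAR-3 at 48 h. The numbers there may be shared only as names, and in SKOV3 the correlations include the difference between library sets. The replicate block is thus an alternative without a pairing shown behind it. Counts this low (SNAI2, ZEB1 and ZEB2 in OVCAR-3, GRHL2 and OVOL1 in SKOV3) allow no statement on a response.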
